A study of Drosophila melanogaster with 12 samples.

Results

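The comparison described here sets flies that carry an interrupted trinucleotide repeat, CAA/G105, against flies that carry the same reporter without a repeat, CAG0. It used 8 of the 12 arrays of the series, 4 of each genotype, and all 8966 of 18769 non-control probe sets with log2 4 or more in at least 4 of the 12 samples. In every group the neuronal driver elav-GAL4 switched on a DsRed reporter. The reporter had no repeat in its 3′ untranslated region in CAG0, an interrupted run of CAA and CAG units there in CAA/G105 and an unbroken run of CAG units in CAG100. CAG0 flies had 1 copy of the transgene, CAA/G105 flies 2 copies and CAG100 flies 5 copies, which the series text says were chosen so that reporter mRNA matched. Copy number therefore differed with the repeat, and the effects of repeat, copy number, insertion site and other genetic background cannot be told apart. The CAG100 arrays supplied part of the estimate of spread, and their values are given beside those of some named genes.

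RNA came from brains of 3-day-old females, about 20 brains per sample, cleared of eyes, lamina and outer medulla. The series text describes the CAA/G105 comparison as a control for responses to a repeat that is not toxic. The GAL4 protein binds UAS sequences and drives the gene placed behind them, so a promoter active in neurons expresses the reporter in those cells. RNA with long unbroken CAG runs can fold into hairpins and is known to harm fly neurons, while interruptions by CAA disturb that fold. Values were log2 expression as deposited, levels are given per array in replicate order or as mean ± SD over 4 arrays, and differences are CAA/G105 minus CAG0 ± SE from limma. Replicates were labelled independent, but whether they came from separate crosses was not stated, so p-values measure the spread between these samples.

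The arrays had like distributions, with 47.1% to 47.5% of probe sets at log2 4 or more on each. Expression of elav, the neuronal RNA-binding protein whose promoter supplies the driver, did not pass the test (13.77 ± 0.08 in CAG0, 13.73 ± 0.05 in CAA/G105, adjusted p = 0.574). The 6 measured neuronal markers averaged 12.27 to 12.46 on CAG0 arrays and 12.28 to 12.40 on CAA/G105 arrays, and none was called, so the neuronal label held. The retrocerebral gland gene Akh read 2.06 on CAA/G105 replicate 3, against 11.32 to 12.92 on the other CAA/G105 arrays and 11.76 to 13.00 in CAG0. CAG100 replicates 1 and 3 read 2.25 and 2.43. Counts of list members are given again without these 3 arrays in the lists where they differ.

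The interrupted repeat was accompanied by large changes in few genes and small changes in many. Limma called 1184 probe sets at an adjusted p under 0.05 (13.2% of those tested), of which 492 were higher (5.49%) and 692 lower (7.72%) in CAA/G105. The median called difference was 0.489 on the log2 scale, or 1.4-fold. A 2-fold difference was reached by 124 higher and 144 lower probe sets, and an 8-fold difference by 18 and 19. Arrays of the genotypes did not overlap for 1582 probe sets (17.6%), with CAA/G105 above CAG0 for 714 (7.96%) and below it for 868 (9.68%). Among 6969 genes, with the probe set of highest mean taken for each, 349 were higher (5.01%) and 523 lower (7.5%). Without the 3 arrays that lacked Akh signal, 372 probe sets were higher and 483 lower. After shifting the arrays to a common median the split was 603 higher and 586 lower.

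**Figure D1:**
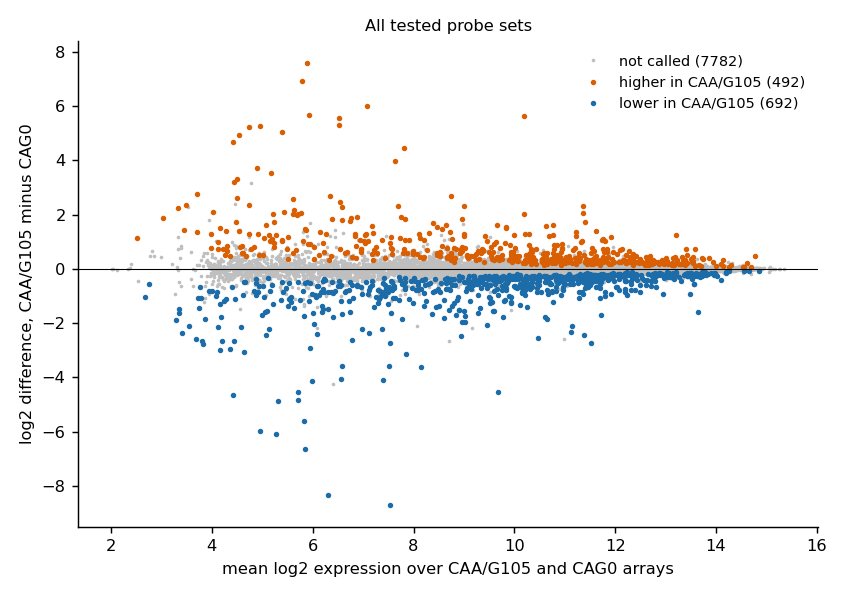
Difference between CAA/G105 and CAG0 (vertical axis, log2) against mean log2 expression over the 8 arrays (horizontal axis) for each of the 8966 tested probe sets. Orange points are the 492 called higher, blue points the 692 called lower and grey points those not called. Most called probe sets lie close to 0 and a small number reach differences beyond 4.

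The largest decreases were in genes of unlike function, and 8 of the 15 probe sets ended with a CAA/G105 mean under log2 4. The methuselah-like receptor gene mthl8, of a family of G protein-coupled receptors, read 10.32, 11.03, 10.25 and 10.34 on the CAG0 arrays and 2.13, 2.15, 2.13 and 2.15 on the CAA/G105 arrays. Its genotypes were far apart and the fall was at least 89.6-fold (adjusted p = 2.83e-12). "At least" marks a fold taken against log2 4, because no array of the lower genotype reached that value. A further mthl8 probe set fell at least 19.9-fold, from 7.54, 8.85, 8.84 and 8.03 to values of 2.21 to 2.24. In bulk brain RNA, a smaller number of cells of a type and less RNA in each cannot be told apart, here and in the results that follow.

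Kmn1, a subunit of the kinetochore network that ties chromosomes to microtubules, read 11.96, 11.88, 11.96 and 11.99 in CAG0 and 7.38, 7.22, 7.53 and 7.48 in CAA/G105. This 23.4-fold fall had an SE of 0.08 around a difference of -4.55 (adjusted p = 2.83e-12). The next measured gene along the X chromosome, Reepl1, a member of the REEP family of endoplasmic reticulum proteins, read 6.68, 7.09, 5.91 and 7.31 in CAG0 and 2.10, 2.11, 2.09 and 2.10 in CAA/G105. It fell at least 6.71-fold (adjusted p = 3.45e-08). CanA-14F, a catalytic subunit of the calcium-dependent phosphatase calcineurin, read 7.83 to 8.22 in CAG0 and 3.89, 4.01, 3.96 and 3.81 in CAA/G105. Its difference was -4.13 ± 0.11 (adjusted p = 5.08e-11), with 3 of the CAA/G105 arrays under log2 4.

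The other large decreases were in genes with no role named here. CG33475 read 7.40, 7.53, 8.11 and 7.91 in CAG0 and 2.93, 2.62, 3.19 and 2.76 in CAA/G105 (at least 13.3-fold lower, adjusted p = 1.59e-09). CG8539 fell at least 17.4-fold (adjusted p = 3.8e-07) and CG43117 at least 15.6-fold (adjusted p = 4.12e-08). Separate arrays were required for the choice of these genes, so lack of overlap is no added support. CG18213 fell 16.7-fold, from 8.45 to 8.85 over the CAG0 arrays to 4.26 to 4.97. The neighbours CG3552 and CG3437 on 3L fell 11.8-fold and 12.4-fold together, with differences of -3.56 ± 0.14 and -3.63 ± 0.12. CG11425 fell by 3.59 ± 0.35, with CAA/G105 replicate 1 under log2 4 at 3.83. The gene be fell 8.83-fold and CG5418 at least 3.61-fold (adjusted p = 0.00436).

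The same genes were measured in CAG100, and the levels there fell into separate kinds. Of the 15 probe sets with the largest decreases, 6 did not pass the direct test of CAA/G105 against CAG100, which called 20.8% of all tested probe sets. These belonged to mthl8, Reepl1, Kmn1, CG43117 and CanA-14F, and CAG100 lay nearer to CAA/G105 than to CAG0 for each. Kmn1, for example, read 7.20, 7.23, 7.30 and 7.45 in CAG100 (difference of 0.10 from CAA/G105, adjusted p = 0.41). The other 9 were lower in CAA/G105 than in CAG100 as well. CG33475, at 7.64, 8.01, 7.60 and 7.54 in CAG100, differed from CAA/G105 by -4.82 (adjusted p = 1.75e-09).

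**Figure D2:**
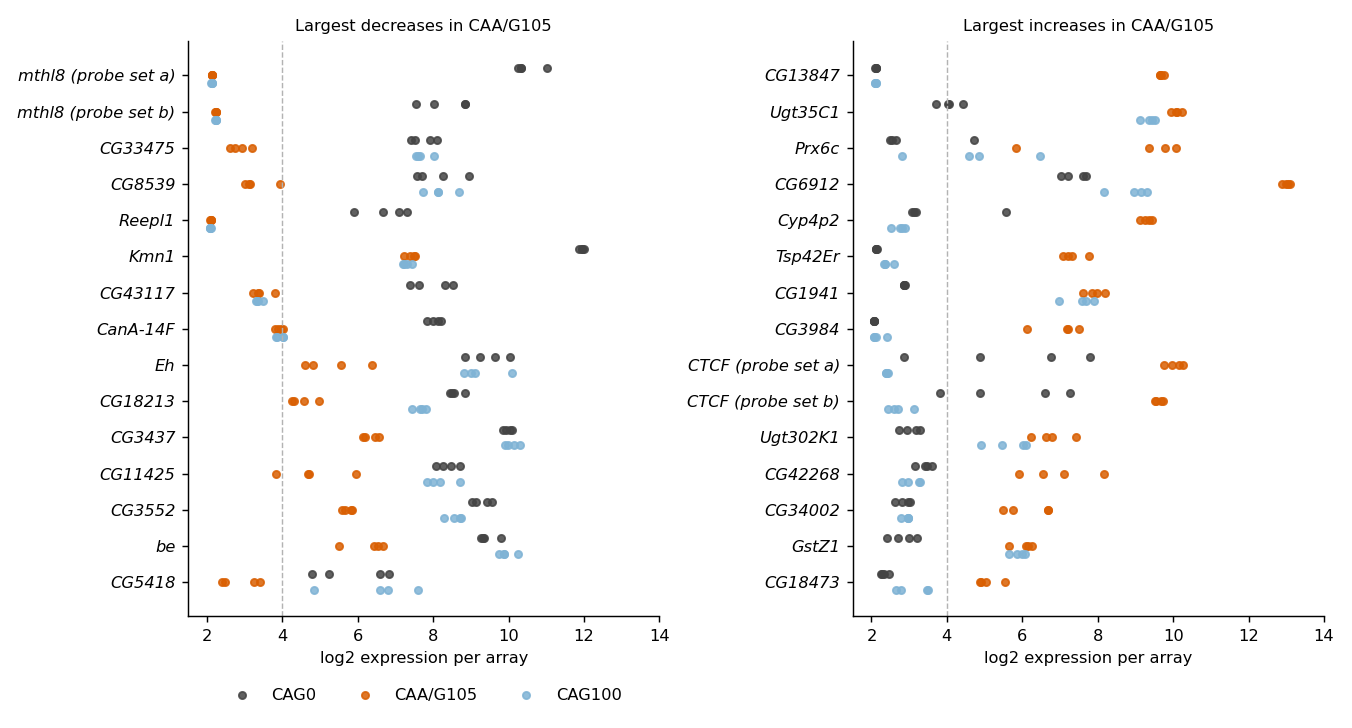
Log2 expression on each array (horizontal axis) for the 15 probe sets with the largest decreases (left) and the 15 with the largest increases (right) among called probe sets that name 1 gene and whose CAG0 and CAA/G105 arrays do not overlap. Dark points are CAG0, orange points CAA/G105 and light blue points CAG100, with 4 arrays each, and the dashed line is log2 4. For mthl8, Reepl1, Kmn1, CG43117 and CanA-14F the light blue points lie with the orange ones, and for CG13847 with the dark ones.

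The largest increases included enzymes that handle foreign compounds and oxidants. CG13847, to which no role is given here, read 2.09, 2.11, 2.12 and 2.11 on CAG0 arrays and 9.65, 9.65, 9.75 and 9.69 on CAA/G105 arrays. It rose at least 51.4-fold (adjusted p = 8.87e-15), and CAG100 arrays, at 2.10 to 2.11, lay with CAG0. The UDP-glycosyltransferase gene Ugt35C1, whose family attaches sugars to small molecules for excretion, read 4.44, 4.04, 4.05 and 3.71 in CAG0 and 9.93, 10.08, 10.09 and 10.23 in CAA/G105. The difference was 6.02 ± 0.14 (adjusted p = 2.7e-11), with CAG0 replicate 4 under log2 4.

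Prx6c, a peroxiredoxin gene that reduces peroxides, read 4.71, 2.64, 2.55 and 2.50 in CAG0 and 10.07, 5.82, 9.35 and 9.78 in CAA/G105. Its 3 lowest CAG0 arrays were under log2 4, 1 CAA/G105 array lay far below the rest, and the difference was 5.66 ± 0.96 (adjusted p = 0.00174). No fold is given for it, since values under log2 4 carry no order. Prx6c lies next to CG33475 on 2R among the measured genes, and the pair moved in opposite directions. The cytochrome P450 gene Cyp4p2 read 5.56, 3.14, 3.08 and 3.18 in CAG0 and 9.37, 9.43, 9.24 and 9.13 in CAA/G105. The difference was 5.55 ± 0.44 (adjusted p = 2.97e-06), again with 3 of the CAG0 arrays under log2 4.

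CG6912 had the largest increase among the 15 of those at log2 4 or more on every array of both genotypes. It read 7.70, 7.62, 7.03 and 7.20 in CAG0 and 13.09, 12.99, 13.04 and 12.89 in CAA/G105, a 49.1-fold rise (adjusted p = 2.88e-09). Its neighbour CG3984 read 2.06 to 2.07 in CAG0 and 7.22, 7.50, 7.18 and 6.12 in CAA/G105 (at least 8.02-fold, adjusted p = 2.18e-08). The tetraspanin gene Tsp42Er, of a family of membrane proteins, rose at least 10.2-fold, and CG1941 from 2.85 to 2.88 over the CAG0 arrays to 7.62 to 8.18 (adjusted p = 1.1e-09). CG42268 rose at least 7.65-fold, CG34002 at least 4.43-fold and CG18473 at least 2.13-fold. Like CG3984 and Tsp42Er, they reached log2 4 on CAA/G105 arrays alone. Separate arrays were required for their choice.

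CTCF, which encodes a zinc finger protein that binds insulator sites in chromatin, was the gene whose control arrays spread most among these. Its first probe set read 7.79, 6.76, 4.89 and 2.87 on the CAG0 arrays and 9.76, 10.26, 10.16 and 9.98 on the CAA/G105 arrays. The second read 7.27, 6.61, 4.87 and 3.81 in CAG0 and 9.54, 9.68, 9.72 and 9.53 in CAA/G105. The probe sets thus placed the CAG0 arrays in the same order. Both lay wholly below CAA/G105, which their selection required. The differences were 4.46 ± 0.77 and 3.98 ± 0.57 (adjusted p = 0.00202 and 0.000547). No fold is given, since CAG0 replicate 4 lay under log2 4 in both. CAG100 read 2.38 to 3.14.

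In the direct test, 13 of the 15 largest increases were higher in CAA/G105 than in CAG100 and 2 did not pass. The latter were CG1941 (6.98 to 7.90 in CAG100, adjusted p = 0.165) and GstZ1 (5.64 to 6.07, adjusted p = 0.611). Ugt35C1 and Ugt302K1 passed, yet their CAG100 levels of 9.13 to 9.52 and 4.91 to 6.09 lay nearer to CAA/G105 than to CAG0.

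Some probe sets lay on opposite sides of log2 4, the value of the filter, in the 2 genotypes. Over all tested probe sets, 22 were at log2 4 or more on every CAA/G105 array and under it on every CAG0 array. All 22 were called, which their selection for separate groups largely fixed. CAG100 was at log2 4 or more on all arrays for 7 of these and on none for 11. In the other direction 32 probe sets were at log2 4 or more on every CAG0 array and on no CAA/G105 array, and 28 of them were called. CAG100 was at that level on all arrays for 14 of these and on none for 14.

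Among groups of genes, neuropeptide precursors had no member higher and 9 of 30 lower, against 7.5% lower over all measured genes. Neuropeptides are short signalling proteins, cut from precursors and released from dense-core vesicles by small sets of neurons, which act on receptors in the brain and body. The median difference over the 30 genes was -0.13, with 23 of them below 0, against a median of -0.010 over all genes, and the median was -0.09 with the arrays shifted to a common median. The count was again 9 lower and none higher with the Akh-lacking arrays left out, and ranged from 7 to 12 lower and 0 to 2 higher over the alternatives. The mean level of the list was 11.95 to 12.05 on CAG0 arrays and 11.71, 11.55, 11.33 and 11.68 on CAA/G105 arrays, the lowest being replicate 3, which lacked Akh. Akh is itself a member of the list and read 2.06 on that array, which lowers the list mean there. Any further part of adhering gland tissue in the list mean was not tested.

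Eh, the eclosion hormone gene, which is known to trigger the behaviour of emerging from the pupal case, had the largest change. It read 9.24, 8.84, 9.64 and 10.04 in CAG0 and 5.57, 4.59, 6.38 and 4.82 in CAA/G105. The fall was 17.1-fold (adjusted p = 1.96e-05), and CAG100 read 8.83 to 10.08. CCHa1, the CCHamide-1 precursor, read 9.63, 9.83, 9.44 and 9.84 in CAG0 and 8.17, 8.28, 7.43 and 8.05 in CAA/G105 (3.25-fold lower, adjusted p = 3.53e-05). Lk, the precursor of leucokinin, a hormone of water balance, read 8.63, 8.92, 8.85 and 9.17 in CAG0 and 7.74, 7.07, 7.57 and 7.73 in CAA/G105 (2.57-fold lower, adjusted p = 6.03e-05). CCHa1 and Lk had separate arrays, as had 17.6% of all tested probe sets. For Eh, separate arrays were required by its choice among the largest decreases.

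Ilp5, an insulin-like peptide of the brain's insulin-producing cells, read 13.87, 14.09, 13.89 and 13.93 in CAG0 and 12.89, 13.10, 13.14 and 12.90 in CAA/G105 (1.92-fold lower, adjusted p = 5.6e-06). CCAP, the cardioactive peptide precursor, read 8.80, 8.80, 8.74 and 9.02 in CAG0 and 7.78, 7.84, 8.27 and 8.25 in CAA/G105 (1.75-fold lower, adjusted p = 0.000868). Levels in CAA/G105 were below those of CAG100 too for Eh, CCHa1, Lk, Ilp5 and CCAP, with differences of -3.91, -1.35, -1.20, -0.65 and -1.10 (adjusted p = 2.37e-05, 0.000193, 0.000132, 0.000103 and 5.45e-05). Differences of the remaining lower genes, CCHa2, Ilp2, Nplp1 and Dh31, were small at -0.25, -0.20, -0.19 and -0.14. The clock output peptide gene Pdf (0.21, adjusted p = 0.131) and sNPF (0.05, adjusted p = 0.694) did not pass.

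**Figure D3:**
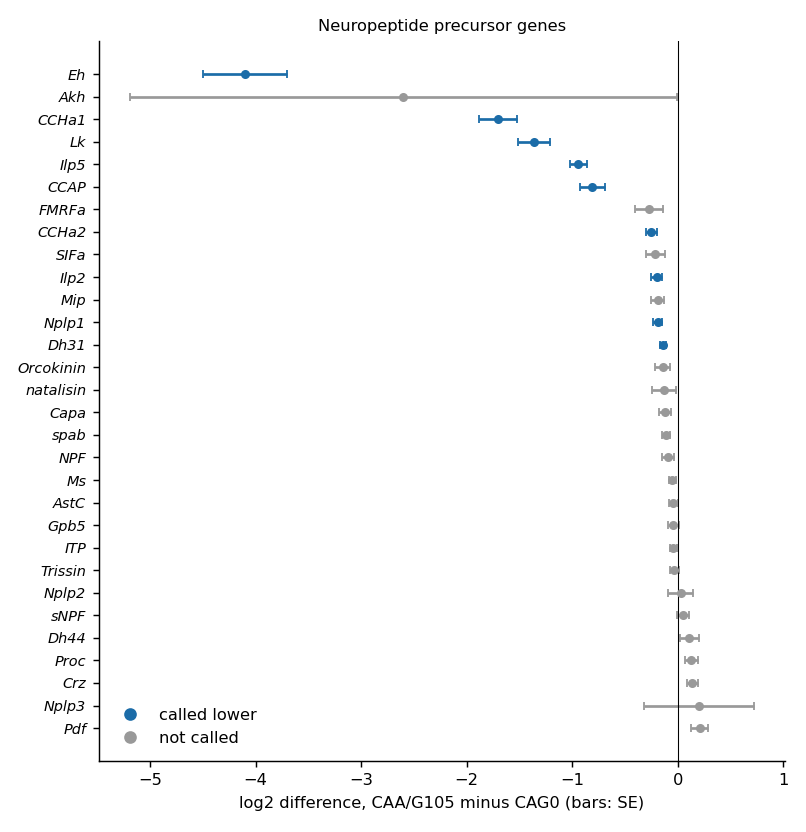
Difference between CAA/G105 and CAG0 (log2, horizontal axis, bars are SE) for the 30 measured neuropeptide precursor genes. Blue points are the 9 called lower and grey points the 21 not called. The wide bar of Akh comes with the single CAA/G105 array at 2.06.

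Among 19 measured neuropeptide receptors 1 was higher and 2 were lower (15.8% called, against 12.5% of all genes). The allatostatin C receptor gene AstC-R1 read 9.79, 9.92, 9.90 and 10.24 in CAG0 and 11.54, 11.64, 11.60 and 11.51 in CAA/G105 (3.06-fold higher, adjusted p = 1.59e-07). Lgr3, the receptor of the relaxin-like peptide Ilp8, read 10.01, 9.60, 9.31 and 9.77 in CAG0 and 8.14, 8.46, 8.06 and 7.94 in CAA/G105 (2.88-fold lower, adjusted p = 3.2e-05). Both genes had separate arrays, and Lgr3 was lower still in CAG100, at 6.24 to 6.67. The bursicon receptor gene rk fell by 0.66 ± 0.13 (adjusted p = 0.00462). Of 11 genes of peptide processing and dense-core vesicles 3 were lower (27.3%), against 7.5% of all genes. Among them were Phm, an enzyme that amidates peptides (1.16-fold, adjusted p = 0.000865), and the synaptotagmin gene Sytbeta (2.05-fold, adjusted p = 0.0042). The third, Pal2, lost its call under several alternatives (adjusted p up to 0.119), and 2 of the 11 were lower with the Akh-lacking arrays left out.

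Genes for the handling of foreign compounds changed in both directions. Of 45 measured cytochrome P450 genes, which oxidise hormones, fats and toxins, 7 were higher and 5 lower, or 26.7% against 12.5% of all genes. Of the lower genes, Cyp12a5 averaged 3.04 ± 0.22 in CAG0 and 2.48 ± 0.01 in CAA/G105. Both means lay under log2 4, where values carry no order, so its direction cannot be read. The counts were 6 higher and 4 lower with the Akh-lacking arrays left out. Cyp4p1, next to Cyp4p2 on 2R, read 6.19, 5.12, 5.69 and 4.75 in CAG0 and 8.19, 7.83, 7.41 and 7.50 in CAA/G105 (4.91-fold higher, adjusted p = 9.74e-05). In CAG100 the same gene read 4.54 to 4.81, below its level in CAA/G105 (adjusted p = 6.7e-06). Cyp9b1 rose 3.58-fold (adjusted p = 0.00191) and Cyp9c1 fell 3.58-fold (adjusted p = 0.000151), each with separate arrays. Cyp6a17 read 2.07 to 2.10 in CAG0 and 9.61, 6.32, 2.09 and 9.02 in CAA/G105, so that 1 of the 4 arrays lay with the controls. It was called (adjusted p = 0.0235), but not with the 8 arrays alone (adjusted p = 0.0695). In CAG100 Cyp6a17 read 12.27 to 12.77, above its level in CAA/G105 (adjusted p = 0.00549).

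Of 12 measured UDP-glycosyltransferases, 4 were higher (33.3%, against 5.01% of all genes) and none lower. The differences of 11 lay above 0, with a median of 0.41. The count was 5 higher with the Akh-lacking arrays left out, and 3 to 6 higher and none lower over the alternatives. Ugt302K1, next to Ugt35C1 on 3R, read 2.74, 3.19, 2.93 and 3.29 in CAG0 and 6.62, 6.24, 6.79 and 7.42 in CAA/G105 (at least 6.81-fold, adjusted p = 2.19e-06). Ugt36D1 rose 1.37-fold (adjusted p = 0.00638). Ugt35A1 rose 2.48-fold with overlapping arrays (adjusted p = 0.041, up to 0.11 over the alternatives).

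Glutathione S-transferases, which couple glutathione to reactive molecules, had 5 of 24 higher and 2 lower, against 5.01% and 7.5% of all genes, and 5 higher and 1 lower with the Akh-lacking arrays left out. GstZ1 read 3.00, 3.21, 2.42 and 2.70 in CAG0 and 6.09, 6.25, 5.65 and 6.14 in CAA/G105 (at least 4.09-fold, adjusted p = 1.52e-07). GstE9 moved the other way, from 8.59, 7.07, 7.22 and 6.71 to 4.81, 3.77, 3.75 and 5.63 (-2.91 ± 0.48, adjusted p = 0.00145). For GstE9, CAA/G105 replicates 2 and 3 lay under log2 4. Its relative GstE2 rose 1.41-fold (adjusted p = 4.8e-05). Of 15 antioxidant enzyme genes 20% were called, against 12.5% of all genes. Prx6c was higher, while MsrA and Prx6a were called lower and lost their calls under some alternatives (adjusted p up to 0.0676 and 0.119). With the Akh-lacking arrays left out 1 gene was lower.

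Antimicrobial and immune-induced peptide genes had 3 of 15 higher and none lower, against 5.01% higher over all genes. Mtk, the metchnikowin gene, read 6.17, 8.05, 8.40 and 7.03 in CAG0 and 9.21, 9.96, 11.51 and 9.66 in CAA/G105 (6.38-fold higher, adjusted p = 0.00887). Its arrays did not overlap, and CAG100 read 9.79 to 11.60 (adjusted p = 0.525 against CAA/G105). Drsl5 (5.10, 3.38, 4.12 and 4.64 in CAG0, 8.69, 4.97, 6.28 and 7.65 in CAA/G105) and the drosomycin gene Drs (1.07 ± 0.32) were called with overlapping arrays. With the Akh-lacking arrays left out, Mtk alone of the list was called. In the signalling pathways upstream, 2 of 21 genes were lower and none higher (9.52% called, against 12.5% of all genes). These were the NF-kappaB factor gene dl (-0.40 ± 0.10) and PGRP-LA, of the peptidoglycan recognition family (-0.32 ± 0.05).

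**Figure D4:**
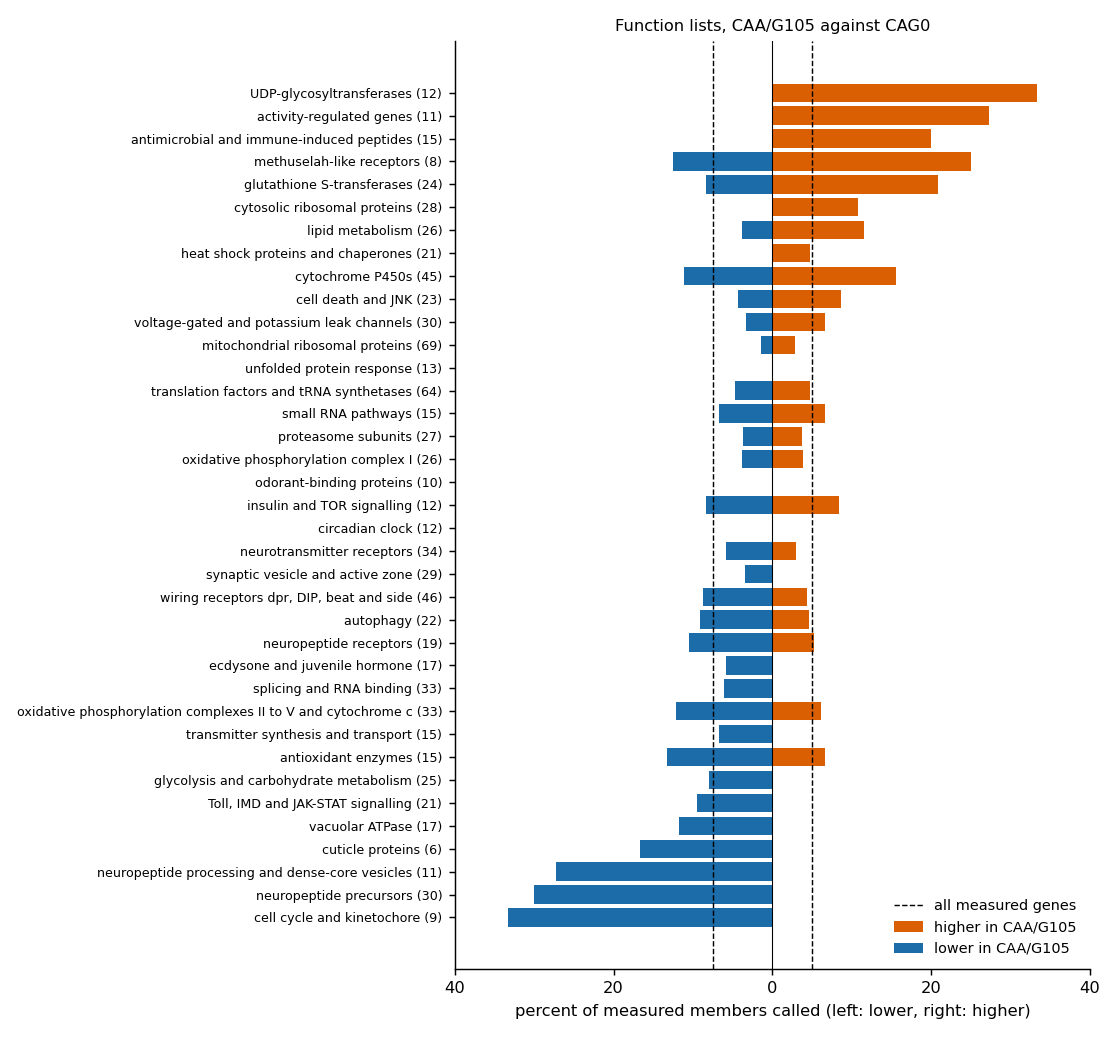
Percent of measured members called higher (orange, to the right) and lower (blue, to the left) in CAA/G105 than CAG0 for the 37 function lists with 5 or more measured genes, with the number measured in brackets. Dashed lines are the shares of all 6969 measured genes, 5.01% higher and 7.5% lower. Neuropeptide precursors, at 9 of 30, lie left of the dashed line and UDP-glycosyltransferases, at 4 of 12, right of it.

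Of 9 measured kinetochore and cell cycle genes 3 were called, against 12.5% of all genes. All 3 were lower, and their products are known parts of the Mis12 complex of the kinetochore. Beside Kmn1, Mis12 read 6.77, 6.73, 7.12 and 7.52 in CAG0 and 5.70, 5.65, 5.22 and 5.65 in CAA/G105 (2.79-fold lower, adjusted p = 8.45e-05). Nnf1a read 9.79, 10.27, 9.97 and 10.07 in CAG0 and 9.12, 9.17, 9.33 and 9.54 in CAA/G105 (1.66-fold lower, adjusted p = 0.00397). CAG100 resembled CAA/G105 in Mis12 level (5.56 to 5.72, adjusted p = 0.764) and was higher than it in Nnf1a level (9.64 to 10.24, adjusted p = 0.00413).

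In energy metabolism a pair of related subunit genes moved in opposite directions. The complex III subunit gene UQCR-11 read 10.00, 9.50, 9.46 and 9.10 in CAG0 and 8.25, 7.35, 7.50 and 7.65 in CAA/G105 (3.54-fold lower, adjusted p = 7.1e-05). UQCR-11L, which is named as its like, read 3.90, 3.64, 3.61 and 3.17 in CAG0 and 5.17, 4.68, 5.28 and 4.78 in CAA/G105 (at least 1.97-fold higher, adjusted p = 0.000761). Both had separate arrays, and probe sets for related sequences may share signal. In all, 2 of 33 genes of complexes II to V and cytochrome c were higher and 4 lower, or 18.2% called against 12.5% of all genes, and with the Akh-lacking arrays left out 2 were higher and 1 lower. Of 26 complex I genes 1 was higher and 1 lower (7.69% called). Of 69 mitochondrial ribosomal protein genes 2 were higher and 1 lower (4.35% called), and 1 and 1 with the Akh-lacking arrays left out. The mitochondrial ribosomal genes mRpL54 (0.88 ± 0.11) and mRpS24 (-0.85 ± 0.08) changed in opposite directions. Of 28 cytosolic ribosomal proteins 3 were higher (10.7% called), led by RpL27 (1.32-fold, adjusted p = 7.85e-06), and 1 was higher with the Akh-lacking arrays left out.

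Of 26 lipid genes 3 were higher and 1 lower (15.4% called, against 12.5% of all genes). The counts were 1 and 1 with the Akh-lacking arrays left out, where Npc2g and GLaz lost their calls. Of 25 sugar metabolism genes 2 were lower (8% called), and 1 with the Akh-lacking arrays left out. Npc2h, of a family that binds sterols and other lipids, read 6.02, 4.63, 4.89 and 4.49 in CAG0 and 8.96, 7.29, 6.43 and 8.04 in CAA/G105 (6.39-fold higher, adjusted p = 0.00279). The fatty acid elongase gene Elovl7 read 5.70, 6.55, 5.50 and 5.27 in CAG0 and 3.01, 3.21, 2.98 and 3.20 in CAA/G105 (at least 3.38-fold lower, adjusted p = 0.0075). Pepck1, which encodes a key enzyme of gluconeogenesis, fell by 1.51 ± 0.36 (adjusted p = 0.0156) and missed the threshold with the Akh-lacking arrays left out (adjusted p = 0.0537). In insulin signalling 16.7% of 12 genes were called. Sdr, a secreted binding protein for insulin-like peptides, fell 1.4-fold (adjusted p = 0.00323). The other, foxo, was higher, though not with the Akh-lacking arrays left out, and kept its call under 10 of the 17 alternatives.

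Lists of neuronal signalling had shares of called genes from 3.45% to 13.0%, against 12.5% of all genes. Of 34 neurotransmitter receptors 1 was higher and 2 were lower, and 1 and 3 with the Akh-lacking arrays left out. The nicotinic receptor subunit gene nAChRbeta3 read 10.96, 10.30, 9.62 and 9.12 in CAG0 and 8.29, 8.26, 6.78 and 8.89 in CAA/G105 (3.85-fold lower, adjusted p = 0.0109). The octopamine receptor gene Octbeta2R read 6.21, 6.52, 6.59 and 6.33 in CAG0 and 7.53, 7.99, 7.66 and 7.43 in CAA/G105 (2.37-fold higher, adjusted p = 3.58e-05), and arrays of both genes were separate. Of 29 synaptic vesicle and active zone genes 1 was lower (Csp, -0.12 ± 0.04), and with the Akh-lacking arrays left out none was called. The transmitter lists gave 1 lower gene of 15 (prt, a vesicular transporter, -0.36 ± 0.08) and the channel list 2 higher and 1 lower of 30, with 1 and 0 with the Akh-lacking arrays left out. Wiring receptors, cell surface proteins by which neurons recognise partners, gave 2 higher and 4 lower of 46, with dpr5 the lower gene of smallest p (-0.43 ± 0.07, adjusted p = 0.00232). Neither higher call was kept with the Akh-lacking arrays left out, which left 3 lower.

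Activity-regulated genes had 3 of 11 higher and none lower, against 5.01% higher over all genes, and 2 higher with the Akh-lacking arrays left out. The zinc finger factor gene sr read 11.14, 11.37, 11.53 and 11.53 in CAG0 and 12.23, 12.33, 12.01 and 11.94 in CAA/G105 (1.66-fold higher, adjusted p = 0.0131). Arc1, which encodes a capsid-like protein that carries RNA between cells, rose 1.24-fold (adjusted p = 0.0079). Its neighbour Arc2 rose 1.56-fold and lost its call under some alternatives (adjusted p up to 0.102). None of 12 circadian clock genes was called by limma, with 2 higher at most under an alternative, and dco had the smallest p (0.14 ± 0.04, adjusted p = 0.0527).

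None of 13 unfolded protein response genes was called by limma (1 under an alternative), against 12.5% of all genes. Of 21 chaperone genes 1 was higher (4.76% called), the cytosolic chaperonin subunit CCT7 (1.51-fold, adjusted p = 0.00276). Proteasome subunits gave 1 higher and 1 lower of 27 (7.41% called), though as many as 8 were lower under an alternative and none with the Akh-lacking arrays left out. Of the 27 differences 22 lay below 0, with a median of -0.09 (-0.06 with the arrays shifted to a common median). The autophagy gene Atg18b, a phosphoinositide-binding propeller protein, read 9.81, 9.73, 9.52 and 9.52 in CAG0 and 10.85, 11.08, 10.89 and 10.91 in CAA/G105 (2.44-fold higher, adjusted p = 5.81e-07). It was the single autophagy gene called higher of 22, and 13.6% of that list was called. Atg6 and Atg1 were called lower, neither of them with the Akh-lacking arrays left out. Atg6 kept its call under 10 of the 17 alternatives and Atg1 under 3. Of 23 cell death and JNK genes 2 were higher and 1 lower (13% called), and 1 and 1 with the Akh-lacking arrays left out. The largest change was in the caspase gene Strica (1.73-fold higher, adjusted p = 0.000163). The tumour necrosis factor gene egr fell 1.25-fold (adjusted p = 0.0104).

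Lists of genes that act on RNA itself were set beside 12.5% called over all genes. They had 6.06% called for splicing and RNA binding, 13.3% for small RNA pathways and 9.38% for translation factors and tRNA synthetases. Of 33 splicing and RNA-binding genes 2 were lower, Hrb87F (-0.23 ± 0.05) and B52 (-0.15 ± 0.04), which are neighbours on 3R. B52 kept its call under 7 of the 17 alternatives (adjusted p up to 0.19). Of 15 small RNA pathway genes 1 was higher and 1 lower, the latter not with the Akh-lacking arrays left out. This lower gene, tapas, kept its call under 8 of the 17 alternatives. Hen1, which methylates the ends of small RNAs, read 5.29, 6.14, 5.96 and 6.07 in CAG0 and 7.33, 8.21, 7.59 and 7.34 in CAA/G105 (3.37-fold higher, adjusted p = 0.000156). Translation factors and tRNA synthetases gave 3 higher and 3 lower of 64 (3 and 2 with the Akh-lacking arrays left out), among them the initiation factors eIF5B (0.41 ± 0.08) and eIF4E1 (-0.22 ± 0.03). Over all function lists together 114 of 868 genes were called (13.1%), against 12.4% of genes in no list.

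Markers of tissue that could adhere to a brain moved with the genotypes in some lists. Of 15 haemocyte markers, of blood cells and the basement membranes they build, 5 were lower and none higher, against 7.5% lower over all genes. LanB1, a laminin chain, read 8.90, 8.53, 8.53 and 8.42 in CAG0 and 7.43, 7.49, 7.05 and 7.46 in CAA/G105 (2.36-fold lower, adjusted p = 0.00218). The mean of the haemocyte list was 11.10 to 11.64 in CAG0 and 10.92, 11.05, 10.48 and 11.10 in CAA/G105, and PPO3 lay under log2 4 on every array. Differences of 14 of the 15 haemocyte markers lay below 0 and of 1 above. Their median was -0.40, against -0.010 over all genes. With the Akh-lacking arrays left out 2 haemocyte markers were lower and the median was -0.26. The part of adhering cells in the other results was not tested. In muscle, 5 of 8 markers had differences above 0 and 3 below, with a median of 0.20 (0.71 with the Akh-lacking arrays left out). Of the 8, 1 was called. This was the flight muscle gene fln, which read 10.22, 9.79, 9.98 and 9.78 in CAG0 and 8.12, 8.09, 7.77 and 7.98 in CAA/G105 (3.88-fold lower, adjusted p = 6.91e-08), while the muscle list mean spanned 6.88 to 8.61 in CAG0 and 6.29 to 10.01 in CAA/G105.

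Of 6 measured glial markers 2 were called higher, repo (0.15 ± 0.03) and moody (0.27 ± 0.08), against 5.01% of all genes. Differences of 4 markers lay above 0 and of 2 below, with a median of 0.04. Neither repo nor moody was called with the Akh-lacking arrays left out, and moody kept its call under 5 of the 17 alternatives. No photoreceptor marker of 4, fat body marker of 9 or retrocerebral gland marker of 3 was called by limma. Fat body means were 11.60 to 12.59 in CAG0 and 11.38 to 11.77 in CAA/G105, and photoreceptor means 8.74 to 9.70 and 7.70 to 9.31. All 5 olfactory appendage markers on the array, Orco among them, were under log2 4 on every array, as were 13 of 15 male markers.

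Called genes were not spread evenly over the chromosomes. On X 8.11% of 1135 measured genes were called, against 11.3% on 2L, 11.9% on 2R, 15.2% on 3L and 14.4% on 3R. Chromosome 4 had 9 of 59 called (15.3%). X had the lowest share of the 5 long arms under each of the 17 alternatives, with a range of 5.37% to 12.7%. The alternatives draw on the same arrays and are no separate check. Cut into bins of about 100 measured genes in the order of the gene table, 3R had 4 adjoining bins, from CG11983 to Glys, at 28.4%, 19.6%, 22.5% and 25.5%. These were singled out after their values were seen. Together they held 98 called genes of 408 (24.0%), 46 higher and 52 lower, against 152 of 1325 (11.5%) on the rest of 3R. Over the 17 alternatives the share in this stretch was 16.9% to 29.9%. These recount the arrays by which the stretch was picked and are no separate check of it. The median SD over CAG0 arrays was 0.122 inside and 0.115 outside.

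**Figure D5:**
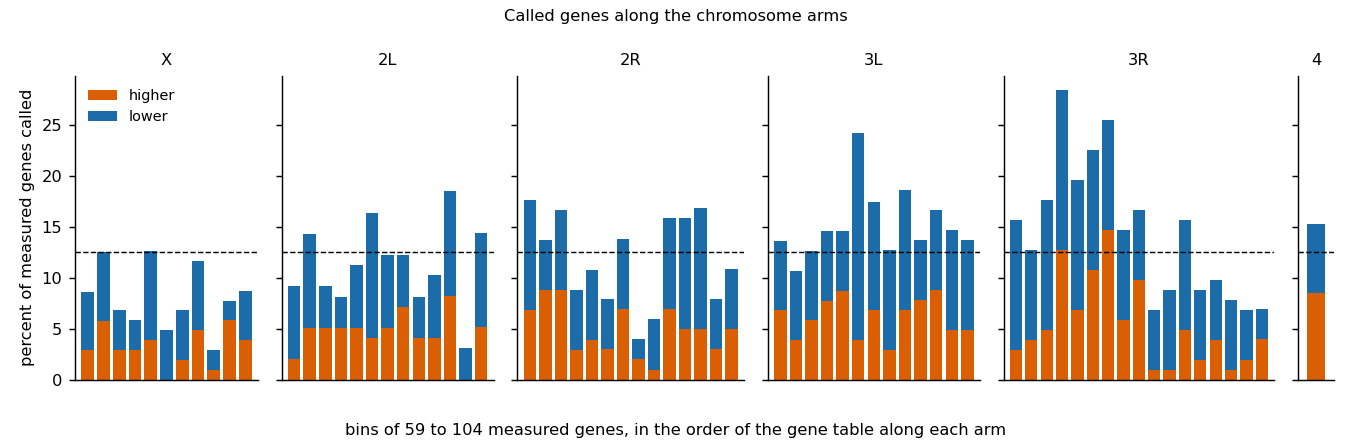
Percent of measured genes called in bins of about 100 measured genes (59 on chromosome 4), in gene order along each arm, split into higher (orange) and lower (blue) in CAA/G105. The dashed line is the share over all measured genes, 12.5%. The tallest bars are the adjoining bins of 3R at 28.4%, 19.6%, 22.5% and 25.5%, and a bin of 3L at 24.3%.

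Adjacent measured genes were called together in 3 runs of 4 genes. On 3R, CG6966, CG42788, CG6912 and CG3984 were all higher, by 0.17, 0.78, 5.62 and 4.94, and on 2R, CG40498, CG40191, Yeti and l(2)41Ab were all lower, by 0.15 to 0.81. Yeti kept its call under 6 of the 17 alternatives and CG6966 under 9, and a further probe set of l(2)41Ab was called higher. The third run, also on 3R, held GC1 (0.40), Tango9 (-0.28), CG18547 (-1.66) and Ect3 (1.29), which did not share a direction. Of these, CG18547 kept its call under 7 of the 17 alternatives. Signal from overlapping neighbours and a shared effect on a stretch of chromosome were not tested.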

How the data were processed

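Each of 12 brain RNA samples was amplified and hybridised to a single-colour Affymetrix array, per the labels. The authors deposited log2 expression per probe set, made with GCRMA and Partek per the submitters' processing notes, with versions and genome build not given in the sources used here. These values were used as deposited. Gene symbols came from the platform annotation, where 13647 probe sets name 1 gene, 402 several and 4720 none. Of the first, 13544 matched the RefSeq genes of Release 6 plus ISO1 MT, which served for names and gene order.

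Limma 3.58.1 in R 4.3.3 fitted 3 genotype means over 12 arrays (9 residual degrees of freedom), with moderated variances following a trend on the mean. P-values were adjusted by Benjamini-Hochberg over 8966 probe sets, and those under 0.05 are "called". Calls can include probe sets whose means lay under log2 4 in both genotypes, such as that of Cyp12a5. The number of arrays limits the precision. The pipeline was tested on simulated data. Replicate numbers did not pair the samples. Alternatives covered the filter, scaling, variance model, weights, block, probe set choice and arrays in the fit.

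The gene lists and members were chosen with earlier results of these data known, so no list was tested. Named genes were the 15 largest changes each way with separate arrays, up to 5 called members of each list (or 2 with the smallest p), elav, Akh and the longest runs of called neighbours. CCHa2, Ilp2, Nplp1, Dh31, Pdf, sNPF and the stretch of 3R were chosen after their values were seen.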

Additional observations from a re-analysis of the deposited data

Results flagged for a closer look

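In groups of 4 arrays, 22 of 312 (7.05%) had 1 array whose gap to the nearest other passed Dixon's critical value for 4 samples, which chance passes in about 1 of 20 groups. Several of these touch large changes. Prx6c was high at 4.71 on CAG0 replicate 1 (2.50 to 2.64 on the others) and low at 5.82 on CAA/G105 replicate 2 (9.35 to 10.07). Cyp4p2 was high at 5.56 on CAG0 replicate 1 (3.08 to 3.18). The gland gene Akh was low at 2.06 on CAA/G105 replicate 3 (11.32 to 12.92), and on the same array the laminin gene LanB1 was low at 7.05 (7.43 to 7.49), as was Mis12 at 5.22 (5.65 to 5.70). The receptor gene mthl8 was high at 11.03 on CAG0 replicate 2 (10.25 to 10.34).

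Other flags lay under log2 4, where values carry no order. CG8539 read 3.94 on CAA/G105 replicate 1 (3.01 to 3.15 on the others), Reepl1 2.09 on CAA/G105 replicate 3, Tsp42Er 2.14 and CG1941 2.88 on CAG0 replicate 3.

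Among immune, redox and metabolic genes, Drs was low at 11.75 on CAA/G105 replicate 4 and MsrA at 12.69 on CAA/G105 replicate 2. The mitochondrial gene mRpL54 was high at 11.43 on CAA/G105 replicate 1 and ND-B16.6 at 13.25 on CAG0 replicate 2. The caspase gene Strica was low at 8.93 on CAG0 replicate 1. Among neuronal and other genes, Csp was high at 13.88 and the clock gene cyc low at 9.71 on CAG0 replicate 3. The wiring gene dpr11 was low at 11.46 on CAG0 replicate 4 and at 11.69 on CAA/G105 replicate 1. The initiation factor gene eIF4E1 was high at 13.38 on CAG0 replicate 2 and CG6966 at 12.50 on CAA/G105 replicate 2.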

How the results depend on the processing

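The count of called probe sets stayed within 1.5 times its value of 1184 under all 17 alternatives, and no result changed direction among those that were called. The count was 928 with no filter, 1050 with a filter at log2 6, 1189 with arrays shifted to a common median, 1215 with quantile normalization, 1117 without a variance trend, 1599 with array weights and 1005 with the 8 arrays alone. Leaving out 1 array gave 874 (without CAG0 replicate 4) to 1529 (without CAG0 replicate 3). Shifting the median moved the share of higher calls from 41.6% to 50.7%. Without the 3 arrays lacking Akh 855 were called, 812 of them shared with the 1184. Of 138 named probe sets that were called, 92 were called under every alternative that tested them (17, or 16 where the stricter filter left a probe set out) and 46 missed the threshold under at least 1. With the probe set of smallest p for each gene, neuropeptide precursors had 9 lower and none higher and UDP-glycosyltransferases 4 higher and none lower, as with that of highest mean. The replicate block gave 1090 calls (463 higher, 627 lower). Deviations of same-numbered CAG0 and CAA/G105 arrays correlated at 0.390, -0.020, 0.026 and 0.056, and not every array correlated best with its own number, so the numbers were not taken to pair samples. Values under log2 4 carry no order, and 4 arrays per genotype limit the precision.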

Other observations

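Measured by several probe sets, genes did not always give 1 answer. Of 492 genes with 2 or more tested probe sets, 116 had at least 1 called, and 20 of these had all called in the same direction. In 88 some were called and none in the opposite direction, and 8 had calls in both directions: CG42322, CIAPIN1, Glut1, Gnpnat, SelR, gkt, l(2)41Ab and scrib. Whether these probe sets report different transcript forms was not tested.

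Other groups had few measured or called members, beside 12.5% called over all genes. Of 10 measured odorant-binding protein genes none was called by limma (1 lower under an alternative), and of 6 cuticle protein genes 1, TwdlE, was lower (-0.96 ± 0.27). Of 8 measured methuselah-like receptors, mthl10 (1.48 ± 0.30) and mthl13 (0.45 ± 0.12) were higher while mthl8 was lower, and with the Akh-lacking arrays left out 1 was higher. Of 17 ecdysone and juvenile hormone genes the transporter gene Oatp74D was lower (-0.46 ± 0.11), though not with the Akh-lacking arrays left out. Of 17 vacuolar ATPase genes 2 were lower, with differences of -0.14 and -0.09, and 1 with the Akh-lacking arrays left out. No digestive protease gene of 22 on the array was measured.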
